A study of Rattus norvegicus with 125 samples.

Results

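The proximal tubule begins at the glomerulus with the S1 segment, continues as S2 and ends as the straight S3 segment. The comparison described here set the 7 S1 libraries against the 7 S3 libraries, 14 of the 125 samples of the series, over all genes. The 7 S2 libraries served only to place a change along the tubule. Every library came from tubules dissected by hand from the left kidney of adult male Sprague-Dawley rats of 200 to 250 g, on normal chow, after collagenase digestion for 25 minutes (cortex) or 50 minutes (outer medulla). The labels do not say from which zone each segment was taken, so zone, digestion time and segment cannot be told apart. They number the libraries of a segment 1 to 7 without saying whether these are separate rats, so p-values measure only the spread between these libraries. Libraries are written here as S1_1 to S3_7.

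The proximal tubule takes back most of the filtered glucose, amino acids, phosphate and bicarbonate, and its cells carry an apical brush border rich in peptidases. S1 is known for bulk uptake by high-capacity carriers and for gluconeogenesis and creatine precursor synthesis. S3 is known for high-affinity carriers, drug metabolism and glutathione turnover. Glutathione is made in the cell by glutamate-cysteine ligase (Gclc, the catalytic subunit, and Gclm, the modifier) and glutathione synthetase (Gss). At the brush border it is broken down by gamma-glutamyl transferase (Ggt1) and peptidases such as aminopeptidase N (Anpep).

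The values are RPKM, read density per kilobase of transcript, scaled to the reads of the library. A gene was tested where at least 4 of the 14 libraries had 1 RPKM or more. It was called where the adjusted p was under 0.05 and the log2 difference, S3 minus S1 on the log2(RPKM + 1) scale, was at least 1 in size. Of 5789 genes tested, 62 were called (1.07%): 33 were higher in S3 (0.57%) and 29 lower (0.501%). The median difference of all tested genes was -0.09 on that scale. The S1 and S3 libraries did not overlap for 30 of all tested genes (0.518%), of which 14 were called. An unadjusted p under 0.05 was reached by 588 genes (10.2%). Without the filter on low values 17 genes were called, and 46 of the 62 calls were lost. Among those that held were Cryab, Tff3, Slc7a13, Osgin1, Dhrs7, Slc38a3, Cyp2d1, Ppic, Slco1a6, Psph, Nabp1, Epb41l3, Nrep, Kcnj15 and Car14; the calls in glutathione genes and brush border enzymes described below were among those lost. Nrep and Kcnj15 were not called in the table made without polyadenylation-site data. Nrep reached at most 14.4 RPKM there, against 232 in the main table, with a difference of -1.49 (adjusted p = 0.381). Kcnj15 reached at most 1.24 RPKM there, against 129, and was not tested. Without S1_2 or S3_1 the adjusted p of Kcnj15 was 0.0742 or 0.0556.

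**Figure D1:**
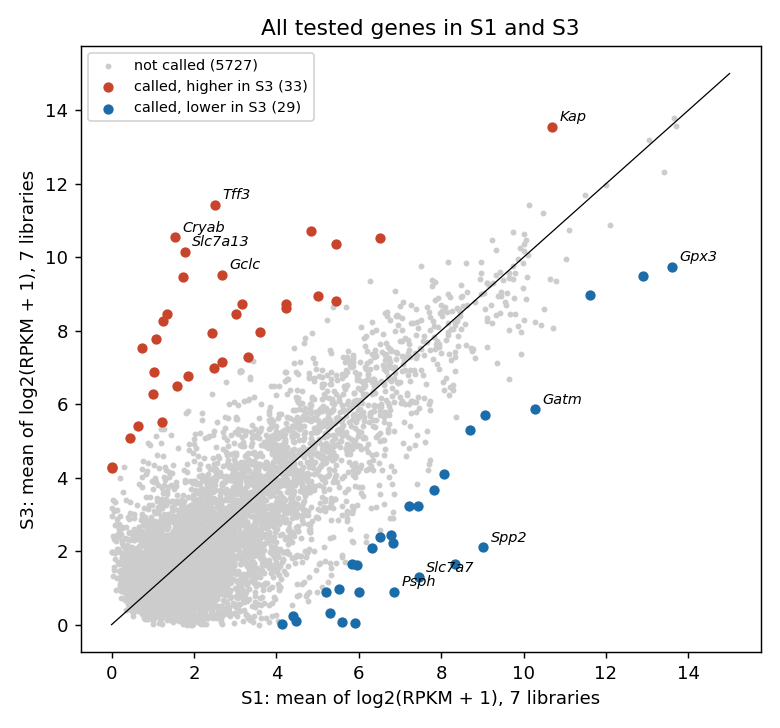
Mean log2(RPKM + 1) of the 7 S1 libraries (x axis) against that of the 7 S3 libraries (y axis) for the 5789 tested genes, with equality drawn as a line. Called genes are red (33, higher in S3) or blue (29, lower in S3); they lie away from the line, and Kap and Gpx3 are the most abundant of those named on their sides.

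The libraries detected between 2066 and 5896 genes at 1 RPKM or more in S1 (median 4437) and between 2594 and 5467 in S3 (median 3850). The difference in means, -386 genes, gave p = 0.529 in a two-sided exact permutation test with n = 7 in each group. Relative depth could be derived for 13 of the 14 libraries and spanned 8.98-fold. It was 1.61 in S1_2 and 0.307 to 0.437 in the other S1 libraries with a value, against 0.418 to 2.76 in S3. Depth and segment can thus not be fully told apart. Correlations between pairs of S1, S2 and S3 libraries, across genes, which are not independent replicates, had a median of 0.541. They reached 0.928 for S1_6 and S2_6, libraries labelled as different segments. S3_7 stood apart, with correlations of 0.363 to 0.505 to the others. It had 43137 RPKM of Spp1 (osteopontin) where the other S3 libraries had 3.25 to 213, and 3606 RPKM of the water channel gene Aqp1 where they had 51.8 to 347. Without S3_7 there were 109 called genes, and without S3_5 there were 112.

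Markers of other cells were present in both groups, and no gene of their lists was called. Only 10 leukocyte, 5 endothelial, 2 stromal and mesangial, 1 podocyte and parietal, 3 thin limb, 4 thick limb and 5 distal markers were tested. With 1.07% of all tested genes called, so few genes cannot show whether these cells differed between the groups. The 14 leukocyte markers summed to 70.9 to 2157 RPKM in S1 (median 783) and 104.8 to 1255 in S3 (median 343). Of the 10 tested, 7 were lower in S3, with a median difference of -1.32. The macrophage complement genes C1qa and C1qb had at most 1.89 and 0.259 RPKM in S3, against up to 40.8 and 66.3 in S1. Distal and collecting duct markers summed to 7.61 to 436 RPKM in S1 and 1.66 to 86.1 in S3. All 5 tested were lower in S3, with a median difference of -0.44. Calb1 (calbindin) and Klk1 (kallikrein) were higher in every S1 library than in any S3 library, with adjusted p of 0.169 and 0.258. For Calb1 the margin was narrow, 2.80 RPKM in the lowest S1 library against 2.61 in the highest S3 library. Other distal genes did not follow. Aqp2 had medians of 1.66 RPKM in S1 and 3.89 in S3. Slc12a3 reached 65.8 RPKM in S3_5, against at most 8.85 in S1. Thick ascending limb markers summed to 5.25 to 114.7 RPKM in S1 and 2.19 to 564 in S3, the latter in S3_5, where Umod had 449 RPKM. Thin limb markers reached 473 RPKM, in S3_7. The part of these cells in the differences below was not tested.

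The labels were set against markers of the segments. The proximal tubule gene Lrp2, the endocytic receptor megalin, had a median of 19.2 RPKM in S1 and 15.3 in S3. Phosphate carrier Slc34a1 had 178 to 5843 RPKM in S1 (median 333) and 64.1 to 1635 in S3 (median 215). Slc5a2, the high-capacity glucose carrier SGLT2, had 0.109 to 1418 RPKM in S1 (median 90.9) and 0 to 52.1 in S3 (median 0.472). The groups overlapped, and the difference of -3.77 ± 1.22 (SE) had an adjusted p of 0.099. It passed without S1_7 (adjusted p = 0.0272), without S3_5 (0.0313) or without S3_7 (0.0191). Slc5a12, a lactate carrier, and Slc4a4, the basolateral bicarbonate carrier, were higher in every S1 library than in any S3 library, with adjusted p of 0.0565 and 0.136. The S3 glucose carrier gene Slc5a1 (SGLT1) was below 0.4 RPKM in every S1 and S3 library and was not tested. The S3 marker Slc22a7 was at 0 in all 7 S1 libraries and reached 18.2 RPKM in S3, with an adjusted p of 0.217.

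Among called genes higher in S3, 7 had every S3 library above every S1 library. Over all tested genes, called or not, the S1 and S3 libraries did not overlap for 0.518%. Cryab, which encodes the small heat shock protein alpha-B crystallin, had 0 to 24.6 RPKM in S1 (median 0.0742) and 150.2 to 6816 in S3 (median 1686). Its difference was 9.01 ± 1.03 (adjusted p = 1.64e-12). Tff3, a secreted trefoil peptide, had 0 to 41.5 RPKM in S1 (median 4.11) and 752 to 10519.7 in S3 (median 2659), a difference of 8.92 ± 0.95 (adjusted p = 3.48e-14). Beside Cryab, 11 immediate early and heat shock genes were tested and none was called, where 1.07% of all tested genes were. Of these 11 genes, 8 were higher in S3, and their median difference was 1.45. Cryab and Tff3 were low in every S1 library and high in every S3 library.

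Slc7a13, a carrier of aspartate, glutamate and cystine in S3, had 0 to 207 RPKM in S1 (median 0.273) and 475 to 3519 in S3 (median 780.1). It differed by 8.36 ± 1.04 (adjusted p = 1.19e-10). S1_5 alone held the 207 RPKM, and the other S1 libraries had at most 4.99. Slc38a3, the glutamine carrier SNAT3, had 0.0149 to 11.1 RPKM in S1 (median 0.293) and 41.7 to 651 in S3 (median 174), a difference of 6.78 ± 1.14 (adjusted p = 5.73e-06). Dhrs7, a short-chain dehydrogenase, had 0.0217 to 29.4 RPKM in S1 (median 0.600) and 43.9 to 889.5 in S3 (median 331), a difference of 7.01 ± 1.12 (adjusted p = 1.11e-06). Osgin1, named for its induction by oxidative stress, had 0 to 73.5 RPKM in S1 (median 0.207) and 108 to 806 in S3 (median 448). It differed by 7.10 ± 1.11 (adjusted p = 6.4e-07). Ppic (cyclophilin C) overlapped, since S1_5 had 555 RPKM; its difference was 7.74 ± 1.08 (adjusted p = 1.72e-08).

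**Figure D2:**
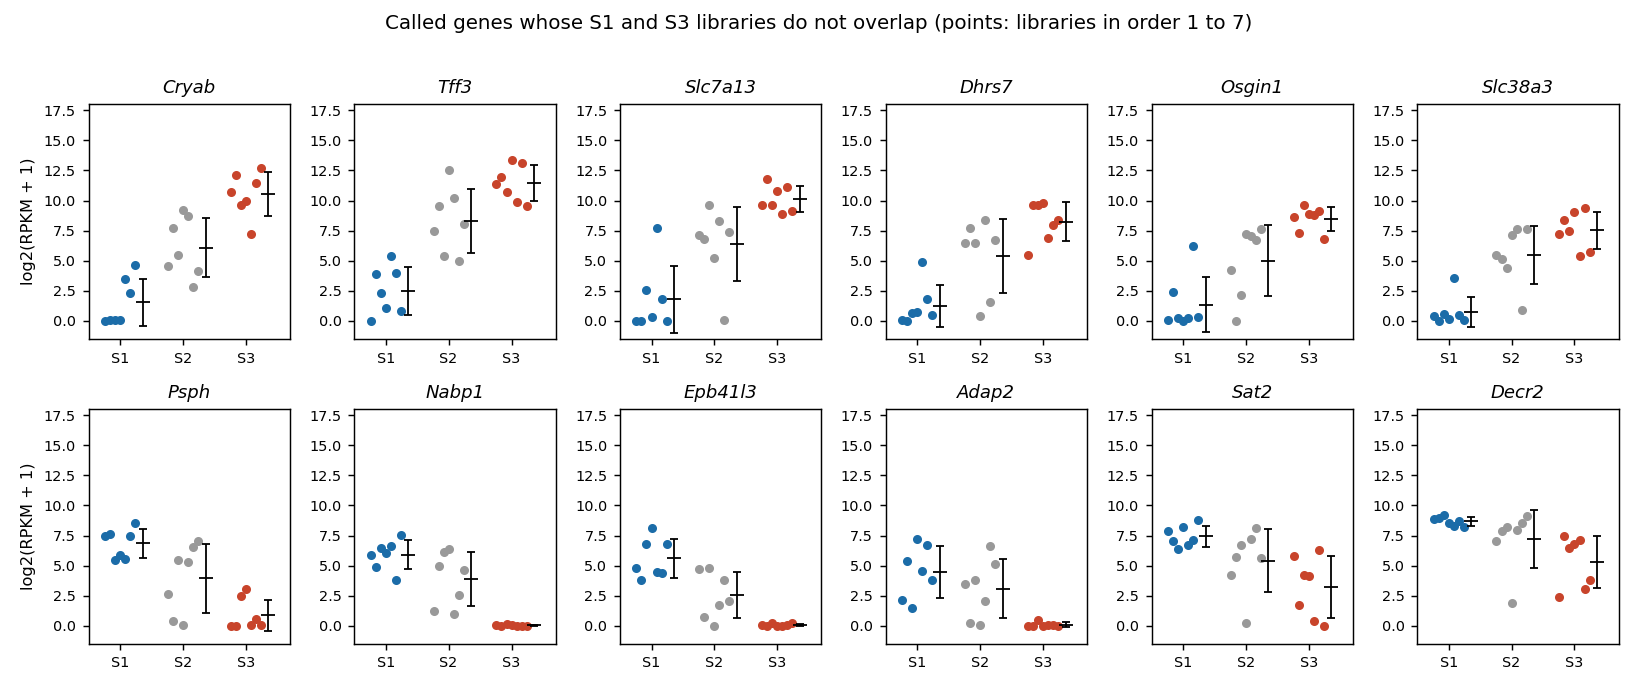
Each point is a library, in the order 1 to 7 within S1 (blue), S2 (grey) and S3 (red), as log2(RPKM + 1); the black mark is the mean ± SD of 7 libraries. The upper 6 genes have all S3 libraries above all S1 libraries, the lower 6 all S1 libraries above all S3 libraries, and the S2 libraries spread between or across them.

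Genes of glutathione synthesis were higher in S3. Of the 35 genes on the conjugation and glutathione list, 27 were tested: 5 rose and 2 fell. Over all tested genes 0.57% were called higher and 0.501% lower. On the list 21 lay above 0, with a median of 0.80 against -0.09 for all genes. The lists here and below were chosen with earlier results of these data known, so their shares and medians only describe them. Gclc had 0.0193 to 349.8 RPKM in S1 (median 1.34) and 147 to 2778 in S3 (median 635), a difference of 6.84 ± 1.04 (adjusted p = 3.02e-07). Gclm had 0.125 to 886 RPKM in S1 (median 2.56) and 54.0 to 1175 in S3 (median 478), a difference of 5.54 ± 1.06 (adjusted p = 0.000129). In both genes S1_5 was the S1 library that overlapped S3. Gss had 0.0904 to 92.3 RPKM in S1 (median 32.8) and 69.6 to 872 in S3 (median 593), a difference of 4.37 ± 1.00 (adjusted p = 0.00367). The conjugating enzyme Gstp1 (glutathione S-transferase pi) had 4.28 to 283 RPKM in S1 (median 139) and 229 to 3976 in S3 (median 1662), and rose by 4.00 ± 0.80 (adjusted p = 0.000313). Gstm2, another transferase, had medians of 2.19 and 256 RPKM and a difference of 4.45 ± 1.14 (adjusted p = 0.0174). Without S3_2 the adjusted p of Gstm2 was 0.0528, and in the table made without polyadenylation-site data it was 0.115.

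The peroxidases that use glutathione moved the other way. Gpx3, the secreted plasma enzyme made by the proximal tubule, had 1315 to 86724 RPKM in S1 (median 17551) and 136 to 17014 in S3 (median 572). It fell by 3.86 on the log2 scale (SE 0.56, adjusted p = 5.76e-08). S3_5 held the 17014 RPKM, and S1_6 the 86724. The cytosolic Gpx1 had 799 to 12595 RPKM in S1 (median 3421) and 111 to 4388 in S3 (median 558), and fell by 2.65 (SE 0.64, adjusted p = 0.00923). Without S1_7 the adjusted p of Gpx1 was 0.0684. In the fit of all tubule libraries that of Gpx3 was 0.0804. Other genes of the oxidative stress response, none of them called, were Nqo1 (difference 2.37, adjusted p = 0.275), Txnrd1 (-0.25, adjusted p = 0.981) and Nfe2l2 (-0.97, adjusted p = 0.845).

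**Figure D3:**
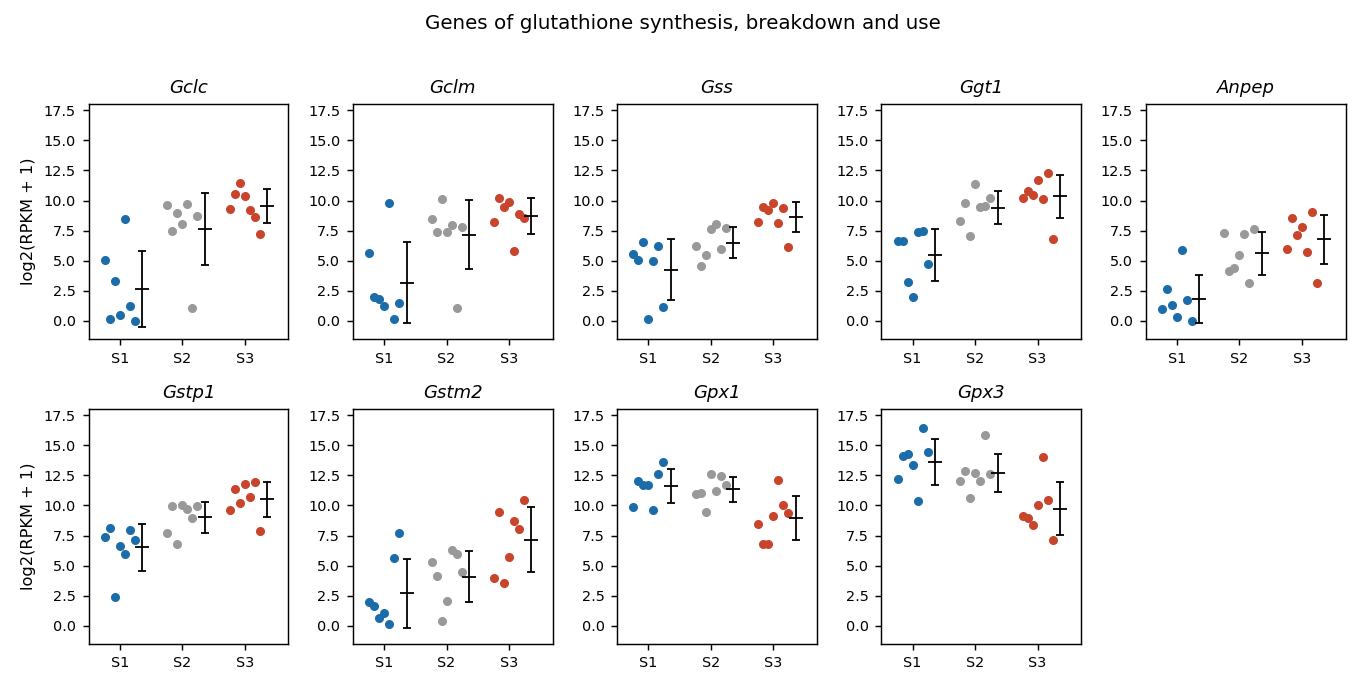
Each point is a library, in the order 1 to 7 within S1, S2 and S3, as log2(RPKM + 1); the black mark is the mean ± SD of 7 libraries. Gclc, Gclm, Gss, Ggt1, Anpep, Gstp1 and Gstm2 have higher S3 means, and Gpx1 and Gpx3 higher S1 means. The S2 means of Gpx1 and Gpx3 lie nearer those of S1 than those of S3.

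The promoters of called genes were searched for the core of the antioxidant response element, TGAC followed by any 3 bases and GCA, on either strand, in the 250 bases before the start site, since the genes of glutathione synthesis moved together. RefSeq promoters (build GRCr8) were found for 29 of the 33 genes higher in S3 and 22 of the 29 lower ones. The letters occurred in 2 of the 29, Gclm and Gstp1, and in 2 of the 22, Pltp and Slc7a7. They occurred in 2.60% of the promoters of tested genes (120 of 4618) and in 2.42% of all promoters of that length (811 of 33469). A match is only a match of letters. The promoters of Gclm (chr2:213031885-213032134, + strand) and Gstp1 (chr1:210769706-210769955, - strand) are printed in the direction of the gene. The match in each is in capitals and begins 173 bases before the start site in Gclm and 61 bases before it in Gstp1.
Gclm: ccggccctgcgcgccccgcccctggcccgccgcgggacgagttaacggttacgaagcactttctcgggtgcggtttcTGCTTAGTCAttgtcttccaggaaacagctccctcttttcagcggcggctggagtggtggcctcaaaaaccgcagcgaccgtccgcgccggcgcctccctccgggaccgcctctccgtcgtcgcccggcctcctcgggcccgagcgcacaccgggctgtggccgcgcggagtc
Gstp1: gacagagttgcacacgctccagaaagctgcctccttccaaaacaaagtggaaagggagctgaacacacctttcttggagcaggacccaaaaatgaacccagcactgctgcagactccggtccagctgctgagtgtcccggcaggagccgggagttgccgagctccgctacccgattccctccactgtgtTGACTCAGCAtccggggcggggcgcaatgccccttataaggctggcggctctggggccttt

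Brush border enzymes were higher in S3 as far as they passed the test. Of 15 tested, 4 rose and none fell, where 0.57% of all tested genes were called higher and 0.501% lower. On this list 12 lay above 0, and the median was 1.98. Ggt1 had 3.01 to 181 RPKM in S1 (median 97.2) and 109 to 4968 in S3 (median 1394), a difference of 4.89 ± 0.87 (adjusted p = 1.89e-05). S3_7, at 109, was the S3 library that overlapped S1. Anpep had 0 to 57.5 RPKM in S1 (median 1.51) and 7.72 to 534 in S3 (median 141), a difference of 4.92 ± 1.15 (adjusted p = 0.00501). The metalloproteases Mep1b (meprin beta) and Mme (neprilysin) rose by 4.76 ± 1.21 (adjusted p = 0.0155) and 4.28 ± 1.18 (adjusted p = 0.0362). Mep1b had a median of 0 RPKM in S1 and 78.9 in S3, and Mme 0.465 and 52.7. The adjusted p of Mep1b was 0.0601, 0.0739 and 0.0609 without S3_2, S3_3 and S3_6. The call of Mme held in 4 of 14 fits that left out 1 library. Those without S1_1, S1_2, S1_3, S1_6, S1_7, S3_1, S3_2, S3_3, S3_4 or S3_6 gave adjusted p of 0.0591 to 0.101, and the table without polyadenylation-site data gave 0.404.

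Amino acid carriers split. Of 17 tested, 3 rose (Slc7a13, Slc38a3 and Slc6a18), 1 fell (Slc7a7), and the median was 0.16. The shares called over all tested genes were 0.57% higher and 0.501% lower. Slc6a18, an apical carrier of neutral amino acids, had 0 to 97.7 RPKM in S1 (median 8.62) and 78.4 to 1107 in S3 (median 297), a difference of 5.42 ± 1.06 (adjusted p = 0.0002). Its neighbour Slc6a19, the main apical neutral amino acid carrier B0AT1, had medians of 19.8 RPKM in S1 and 0 in S3, with a difference of -3.15 and an adjusted p of 0.144. Slc7a7, the basolateral carrier y+LAT1 of cationic amino acids, had 65.3 to 425 RPKM in S1 (median 156) and 0 to 354 in S3 (median 0.0982). It fell by 6.16 (SE 1.15, adjusted p = 7.87e-05), and S3_5 alone held the 354 RPKM, the other S3 libraries having at most 0.164.

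Of 13 cytochrome P450 genes tested 3 rose, Cyp2d1, Cyp4a2 and Cyp4a8, and none fell (median 0.66), where 0.57% of all tested genes were called higher and 0.501% lower. Cyp2d1 had 0 to 3.26 RPKM in S1 (median 0) and 10.6 to 113 in S3 (median 29.5), with no overlap, and differed by 4.63 ± 1.17 (adjusted p = 0.0153). The fatty acid hydroxylases Cyp4a2 and Cyp4a8 rose by 4.36 ± 1.06 and 3.93 ± 0.96 (adjusted p = 0.00899 and 0.00955). These P450 genes have close paralogs, between which reads could be split. Their calls were lost without S3_4 (Cyp2d1, adjusted p = 0.0527), without S3_3 (Cyp4a2, 0.05; Cyp4a8, 0.0571) and without S1_4 (Cyp4a8, 0.0523). Of 18 organic ion carriers tested, Slco1a6 rose by 6.69 ± 1.14 (adjusted p = 6.3e-06; medians 0.0215 and 385 RPKM) and Slc22a8 fell. S1_5 held 70.5 RPKM of Slco1a6, and the other S1 libraries at most 0.598. Slc21a4, an older symbol of the organic anion carrier OAT-K1, was not on that list and is named after its values were seen. It had 0 to 535 RPKM in S1 (median 0.0956) and 1.79 to 413 in S3 (median 185), and rose by 4.91 ± 1.19 (adjusted p = 0.00899). S1_5 held the 535 RPKM, and the other S1 libraries had at most 1.08. Without S3_3 its adjusted p was 0.0552. Slc22a8, the basolateral organic anion carrier OAT3, had 32.5 to 825 RPKM in S1 (median 80.7) and 0 to 107 in S3 (median 0.728), and fell by 4.35 (SE 1.14, adjusted p = 0.0226). Without S1_2, S1_6, S3_1, S3_2 or S3_3 its adjusted p was 0.0549 to 0.092, and in the fit with S2 0.0533.

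Of 15 tested genes of gluconeogenesis, ammonia and creatine, 2 fell, Gatm and G6pc, and none rose (median -0.15). Called over all tested genes were 0.501% lower and 0.57% higher. Gatm, which makes the precursor of creatine, had 101 to 5615 RPKM in S1 (median 1384) and 0 to 397 in S3 (median 67.7), and fell by 4.42 (SE 0.87, adjusted p = 0.000229). S3_7 was at 0, where the other S3 libraries had at least 57.5 RPKM. G6pc, the glucose-6-phosphatase catalytic subunit, had 3.85 to 279 RPKM in S1 (median 78.6) and 0 to 11.1 in S3 (median 3.67), and fell by 4.19 (SE 1.17, adjusted p = 0.0403). Its call was lost in 7 of the 14 fits that left out 1 library, those without S1_1, S1_2, S1_3, S1_5, S3_1, S3_3 or S3_4, at adjusted p of 0.0656 to 0.13, and in the other table (0.0714). No gene was called among 7 glucose and fructose carriers, 16 phosphate, sulfate and carboxylate carriers or 11 genes of water and paracellular flow. The same held for 30 genes of fatty acid oxidation, 25 of oxidative phosphorylation, 15 transcription factors and 7 receptors. With 1.07% of all tested genes called, lists this small can hold no call without differing from the rest. The bicarbonate and acid list (13 tested) held 1 call, Car14, a membrane carbonic anhydrase, lower in S3. Car14 fell by 4.16 (SE 1.16, adjusted p = 0.0403), from a median of 22.8 RPKM in S1 to 0.0374 in S3. Its call was lost in 9 of the 14 fits that left out 1 library, those without S1_1, S1_2, S1_3, S1_6, S3_1, S3_2, S3_3, S3_4 or S3_6, at adjusted p of 0.0503 to 0.104, and in the other table (0.166). Over the 14 libraries it correlated at 0.977 with its neighbour Aph1a.

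Among called genes lower in S3, 7 had every S1 library above every S3 library. The share without overlap, in either direction, was 0.518% over all tested genes, called or not. Psph, the last enzyme of serine synthesis, had 42.4 to 371 RPKM in S1 (median 175) and 0.00927 to 7.30 in S3 (median 0.0750), and fell by 5.97 (SE 1.15, adjusted p = 0.000143). Nabp1, a single-stranded DNA binding protein, had 12.9 to 189 RPKM in S1 (median 66.9) and at most 0.109 in S3, and fell by 5.87 (SE 1.17, adjusted p = 0.000267). Epb41l3, of the membrane skeleton, had 13.2 to 279 RPKM in S1 (median 26.6) and at most 0.163 in S3, and fell by 5.52 (SE 1.17, adjusted p = 0.00096). Sat2, an acetyltransferase, had 83.8 to 442 RPKM in S1 (median 139) and 0 to 77.9 in S3 (median 16.4), and fell by 4.23 (SE 1.08, adjusted p = 0.0174). Without S1_7 its adjusted p was 0.0548, and without S3_5 and S3_7 together 0.111. Adap2, which acts on the small GTPase ARF6, and the peroxisomal reductase Decr2 were also separated, with adjusted p of 0.0251 and 0.0366. Fits that left out 1 library lost Adap2 at 0.0506 to 0.0622 (without S1_2, S1_6, S3_1 or S3_3) and Decr2 at 0.0507 to 0.127 (without S1_1, S1_2, S1_3, S1_7, S3_1 or S3_6); in the other table that of Decr2 was 0.0579.

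Spp2, a secreted phosphoprotein, had 38.1 to 3612 RPKM in S1 (median 396) and 0 to 976 in S3 (median 0.287), and fell by 6.91 (SE 1.11, adjusted p = 1.36e-06). S3_5 held the 976 RPKM, and the other S3 libraries had at most 4.54. Aadat and Kap were chosen after their values were seen. Aadat, an aminotransferase of lysine and kynurenine breakdown, had 0.522 to 1439 RPKM in S1 (median 29.7) and 564 to 4903 in S3 (median 2152). It rose by 5.88 ± 0.89 (adjusted p = 3.02e-07). S1_5 held the 1439 RPKM and overlapped S3, and the other S1 libraries had at most 65.8. Kap, the kidney androgen-regulated protein, had 298 to 9636 RPKM in S1 (median 1298) and 4066 to 35854 in S3 (median 13282), a rise of 2.86 ± 0.50 (adjusted p = 1.63e-05). In the fit of all tubule libraries the adjusted p of Kap was 0.573.

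Some called genes closely followed the gene beside them across libraries. Of 61 called genes found in RefSeq (GRCr8), 19 had an expressed neighbour within 2 kb, and 6 pairs correlated above 0.9 over the 14 libraries. Tnip1, beside Gpx3, was called lower (-3.41, adjusted p = 6.3e-06) and correlated with it at 0.996. Its highest library had 34257 RPKM in the main table and 30.5 RPKM in the table made without polyadenylation-site data, where its difference was 0.08 (adjusted p = 0.996). Prepl, beside the cystine carrier gene Slc3a1, was called higher (3.35, adjusted p = 0.0429) and correlated with it at 0.997. Its highest library fell to 48.3 RPKM in the other table (difference 1.13, adjusted p = 0.697). Fits without S1_3, S1_4, S1_6, S3_1, S3_2, S3_3, S3_4 or S3_6 also lost its call, at adjusted p of 0.0503 to 0.165. Slc3a1 itself missed the threshold in the main table (3.26, adjusted p = 0.0548) and passed it in the other (3.47, adjusted p = 0.0107). Gss and Acss2 correlated at 0.983, and both were called in both tables. Whether reads of a gene were counted for its neighbour was not tested.

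**Figure D4:**
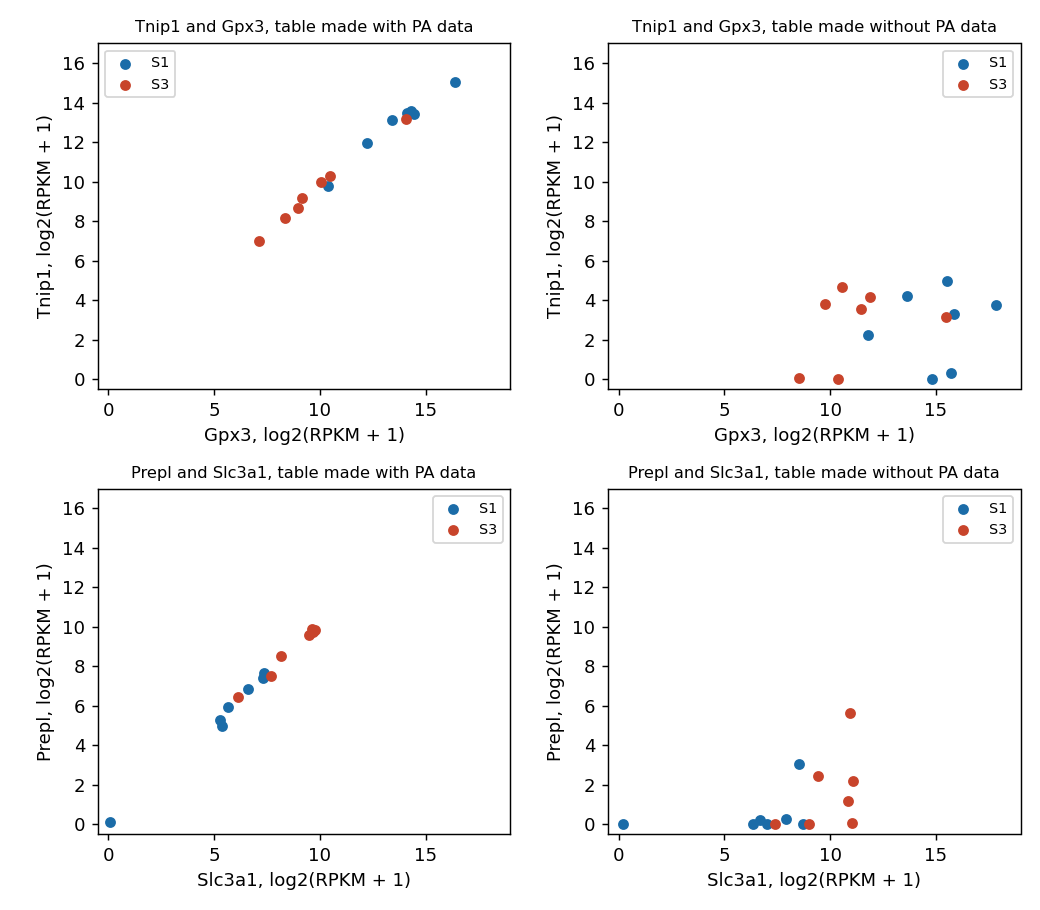
Log2(RPKM + 1) of Tnip1 against Gpx3 (top) and of Prepl against Slc3a1 (bottom), a point for each S1 (blue) or S3 (red) library, in the table made with polyadenylation-site data (left) and without (right). In the left panels the points lie along a line (r = 0.996 and 0.997); in the right panels Tnip1 and Prepl reach only 30.5 and 48.3 RPKM.

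S2 placed the changes along the tubule. In the fit of 21 libraries, 1 of 7260 genes was called between S1 and S2 (0.0138%), Tff3, which rose by 5.82 ± 0.97 (adjusted p = 0.00058); 268 had an unadjusted p under 0.05 (3.69%). Between S2 and S3, 2 were called (0.0275%), Spp2, which fell by 5.63 (SE 1.14, adjusted p = 0.0337), and Aldh1a1, a retinal dehydrogenase, which fell by 5.37 (SE 1.12, adjusted p = 0.0337); 462 had an unadjusted p under 0.05 (6.36%). No gene was called by limma for a difference between the steps (0%), and 279 had an unadjusted p under 0.05 (3.84%). For each of the 62 genes the S2 mean was expressed as a percentage of the way from S1 to S3, a description that shares the S1 and S3 values. For the 33 higher genes the median was 64.3%, with 23 between 25% and 75% and 9 above. For the 29 lower genes it was 32.1%, with 13 below 25% and 16 between 25% and 75%. Over all genes of this fit, the median difference was 0.17 for S2 minus S1, with 58.9% of genes above 0. For S3 minus S2 it was -0.28, with 37.8% above 0. S2 values thus lay higher in general, and the part of this shift in the positions was not tested. Only the difference between the steps within a gene was tested, not that between the gene groups.

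Cyp4a2 (90.2%), Cyp4a8 (89.8%) and Ggt1 (80.4%) had S2 means near those of S3. Ggt1 had 134 to 2589.5 RPKM in S2 (median 743). Its steps differed by -2.97 with an unadjusted p of 0.048 and an adjusted p of 0.9997 in limma, so it was not called. With all S2 libraries, Gclc (72.5%), Gclm (72.1%) and Tff3 (65.2%) lay further back. Cryab (50.5%) was midway, with 6.01 to 579.9 RPKM in S2 (median 44.2). Gc, the vitamin D binding protein, was at a median of 0 RPKM in S1 and S2 and 33.0 in S3 (5.28%). Its rise from S1 to S3 of 4.25 ± 1.16 (adjusted p = 0.0344) was lost in 8 of the 14 fits that left out 1 library, those without S1_1, S1_2, S1_3, S1_6, S1_7, S3_2, S3_3 or S3_6, at adjusted p of 0.0523 to 0.0741. Among lower genes, Slc7a7 (68.2%) had an S2 median of 21.3 RPKM. Gatm (8.19%), Gpx1 (10.1%) and Slc22a8 (2.89%) had S2 means near those of S1. Gatm had 137 to 5418 RPKM in S2 (median 899). Without S2_6, the library closest to S1_6, the medians were 73.6% and 36.7%, and 16 higher genes lay above 75%. Gclc and Gclm then lay at 88.4% and 90.4%, past Ggt1 at 79.8%, so their order rested on S2_6.

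**Figure D5:**
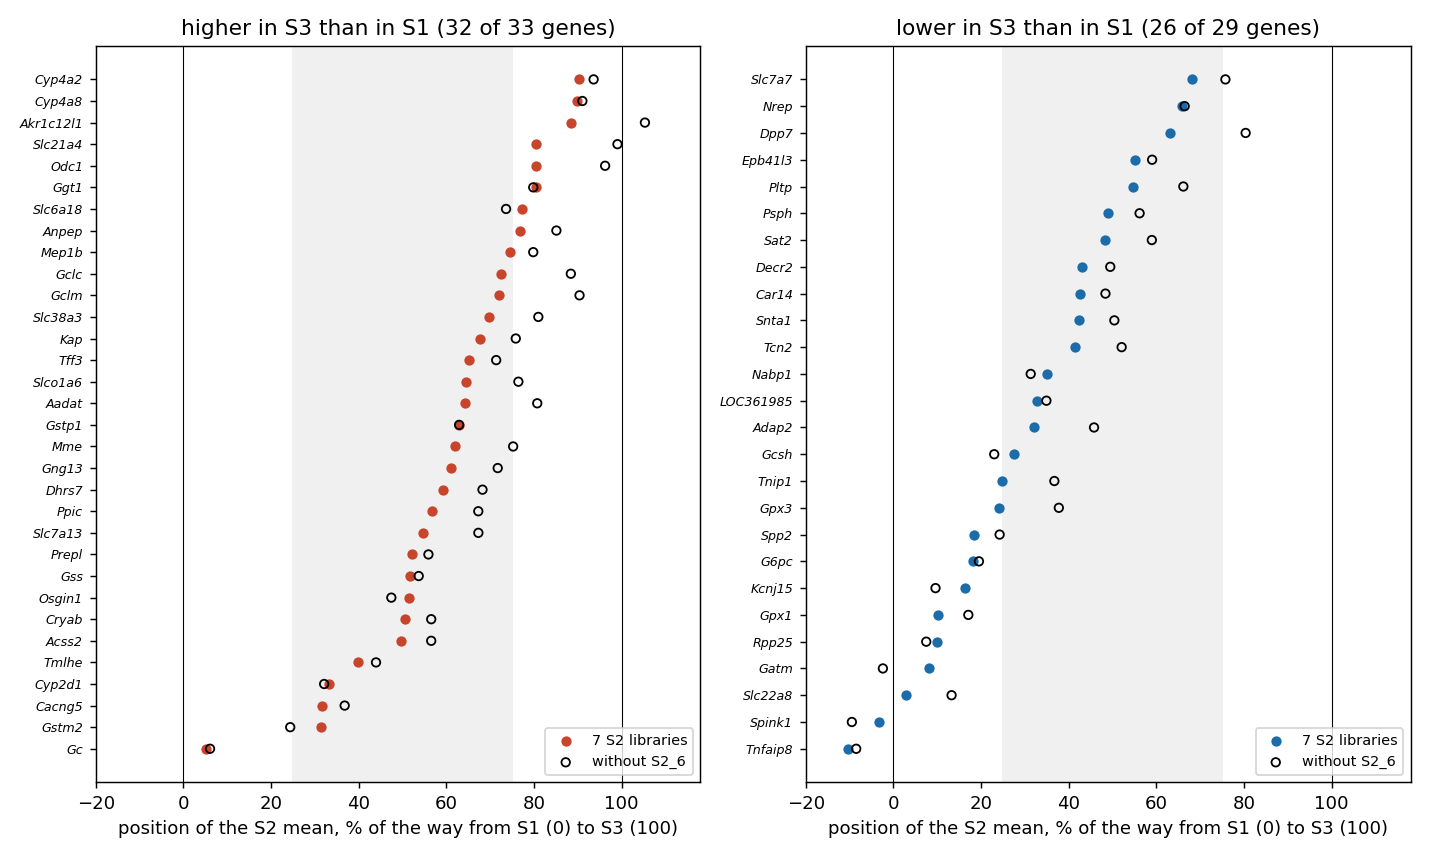
Position of the S2 mean on the way from S1 (0%) to S3 (100%), on the log2(RPKM + 1) scale, for 32 of the 33 genes higher in S3 (left) and 26 of the 29 lower (right); filled points use 7 S2 libraries, open points leave out S2_6, and the grey band is 25% to 75%. Cyp4a2 lies at 90.2% and Gc at 5.28%; Slc22a8 lies at 2.89%.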

How the data were processed

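RNA of microdissected tubules was amplified by a single-cell protocol and sequenced as paired reads, per the labels' protocols. The authors deposited RPKM values per RefSeq transcript. Tools listed in the submitters' processing notes are HOMER, SAMtools, STAR 2.3.0-r192 and Trimmomatic 0.32, with rn5 as the genome build. No source used here tells how polyadenylation-site data entered the main table; a table made without them served as an alternative. Counts are not in the tables, so counting error is unknown.

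For 17144 symbols the transcript with the highest mean over all tubule libraries was kept. Values were tested as log2(RPKM + 1), which understates changes of low genes, with limma 3.58.1 (trend, two-sided) in R 4.3.3 and Benjamini-Hochberg adjustment over all genes tested; scripts were tested on simulated data. S1 and S3 (14 libraries) were fitted alone, and S1, S2 and S3 (21 libraries) together for position. Genes named are, by rule, the 8 called genes that changed most in either direction (non-overlapping ones preferred), called members of 26 lists, and 11 fixed genes. Members and lists were chosen with earlier results of these data known. Relative depth came from the most frequent ratio of low values between libraries, agreeing in at least 3 of 5 references. Alternatives were pseudocount, filter, normalization, table, replicate block, genes detected as a covariate, array weights, other sets of libraries and leaving out each library. No fit adjusted for relative depth. Leaving out S3_5 and S3_7 together, S2_3 and S2_6 together, or keeping all transcripts, was chosen after seeing the data. Glomeruli and the water-load samples were not used here, and some called genes are counted but not reported here.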

Additional observations from a re-analysis of the deposited data

Results flagged for a closer look

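Of 129 groups of 7 libraries tested over the named and called genes, 29 had a highest or lowest library whose gap to the next, as a share of the group's range, exceeded Dixon's 95% critical value; chance flags about 1 in 20 groups, and flags of 1 library are not independent. S1_5 had 10 of them. In genes higher in S3 it was the highest S1 library for Ppic (555 RPKM, others up to 2.75), Slc21a4 (535, up to 1.08), Slc7a13 (207, up to 4.99), Slco1a6 (70.5, up to 0.598), Akr1c12l1 (45.9, up to 0.701), Mme (41.0, up to 1.02), Dhrs7 (29.4, up to 2.58), Mep1b (12.3, up to 0.416) and Slc38a3 (11.1, up to 0.476). It was also the lowest for Tcn2 (5.61, others from 82.3).

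S3_5 was the highest S3 library for genes lower in S3: Spp2 (976 RPKM, others up to 4.54), Slc7a7 (354, up to 0.164), Spink1 (20.8, up to 2.28) and Rpp25 (3.55, up to 0.0327). S3_7 was the lowest S3 library for Gatm (0 RPKM, others from 57.5), Acss2 (85.2, others from 386) and Ggt1 (109, others from 1139). S3_3 was the highest S3 library for Adap2 (0.429) and Slc4a4 (0.0257), both low levels, and S3_1 for Nrep (15.6).

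S1_6 was the lowest S1 library for Gcsh (8.82 RPKM, others from 242), Spink1 (4.00) and Kcnj15 (3.48), and the highest for Osgin1 (73.5, others up to 4.16) and Gc (0.0358). S1_4 was the lowest for Tnfaip8 (0.371, others from 73.8) and Prepl (0.0909, others from 30.1), S1_3 for Gstp1 (4.28, others from 61.0) and S1_7 for Car14 (0.435, others from 18.6).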

How the results depend on the processing

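For S1 against S3, the 62 calls became 100 with a pseudocount of 0.1, 17 without the filter on low values, 163 with array quality weights, 208 with all tubule libraries in 1 fit and 137 without S3_5 and S3_7 together (chosen after seeing the data). Leaving out 1 library gave 44 to 112 (44 without S3_3, 109 without S3_7 and 112 without S3_5). With quantile normalization there were 83 calls, 57 in the other table, with genes detected as a covariate 82 (55 higher, 27 lower), and without S1_4, the only S1 or S3 library under 2500 genes, 73 (30 higher, 43 lower). Of the 62 genes, 33 were called in all 14 fits that left out 1 library, 12 under all 12 other alternatives, and 11 under both. No filter lost 46 of them, and 12 were lost in the other table. Quantile normalization moved the median difference of all genes by 0.11 on the log2 scale. In the other table Tnip1 turned to a difference of 0.085.

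Replicate numbers did not pair the S1 and S3 libraries: residuals of those of equal number correlated at -0.205 to 0.034. None of the 7 S1 libraries was closest to its own number in S3. Residuals were not compared with S2, where S1_6 and S2_6, of equal number, were the most alike pair (r = 0.928). The replicate block gave 47 calls for S1 against S3, losing 15 of the 62, 3 for S1 against S2 and 6 for S2 against S3.

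For S1 against S2 the 1 call became 10 with a pseudocount of 0.1, 0 without the filter, 3 in the other table, 66 with all tubule libraries, 6 with both groups fitted alone and 10 without S2_3 and S2_6 (chosen after seeing the data). For S2 against S3 the 2 calls became, in the same order, 13, 1, 5, 98, 10 and 0, and 7 without libraries under 2500 genes, 0 with genes detected as a covariate and 13 with array quality weights. Unequal steps were called for 27 genes with all tubule libraries and 0 under the other alternatives. The cause of these changes was not tested. The difference in genes detected stayed negative, with exact permutation p of 0.51 to 0.57 under 3 alternatives. Libraries differed up to 8.98-fold in relative depth, with S1 values mostly lower than S3 values.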
